A study of Mus musculus with 2 samples.

Results

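Lymphocyte genes were examined in 2 RNA-sequencing libraries of mouse tongue. The rule took the rows of the deposited gene table whose symbol was *Ptprc*, *Cd3d*, *Cd3e*, *Cd3g*, *Cd4*, *Cd8a*, *Cd2*, *Thy1* or *Nkg7*. All 9 genes had exactly 1 row, of 18043 rows with a gene symbol and 18498 rows in all. The libraries were made from the circumvallate papillae (CvP), the large taste papillae at the back of the tongue, and from tongue epithelium without papillae (Epi). Both came from male C57BL/6J mice of 12 to 30 weeks on normal chow, with no mutation or treatment named in the labels, and for each tissue RNA of 20 or more mice was pooled and its poly(A) fraction made into 1 library. There was therefore no replicate within a tissue, no p-value was calculated, and every comparison was between these 2 libraries. Values are RPKM, read counts scaled by the length of the exon model and by the mapped reads of the library.

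T lymphocytes recognise antigen with a receptor whose signal is carried by the CD3 chains, the products of *Cd3d*, *Cd3e* and *Cd3g*. The coreceptors CD4 and CD8 bind the major histocompatibility (MHC) molecules of class II and class I and bring the kinase Lck to the receptor. CD45, the product of *Ptprc*, is a tyrosine phosphatase on the surface of all nucleated blood cells and so marks leukocytes in general. Mucosal epithelia hold resident T cells between their keratinocytes, next to Langerhans cells, and the connective tissue core of a papilla holds further leukocytes. In whole tissue, fewer cells of a type and less RNA per cell cannot be told apart.

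The data show that the members other than *Ptprc*, among them the CD3 and coreceptor genes, were close to the limit of detection in both tissues. *Ptprc* was measurable in both and higher in CvP. Some T cell genes outside the members stood higher in CvP, as given below. *Ptprc* had an RPKM of 1.18 in CvP and 0.23 in Epi. The other 8 genes lay between 0.01 and 0.24 in CvP and at or below 0.20 in Epi. By comparison, the median over all rows with a gene symbol was 3.93 in CvP and 2.03 in Epi. None of the 9 genes reached a CvP RPKM of 10, the minimum that the study set for its candidate genes.

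The number of reads behind each value limits what can be compared. The CvP library held about 28375286 mapped reads and the Epi library about 27908444, as derived from the spacing of the smallest values, and reads per gene were estimated from RPKM, length and these totals. A count of 0 reads allows up to 3 reads, and 3 reads were taken as the floor. In the CvP 4 of the 9 genes were at or below 3 reads, against 13.8% of all rows with a symbol. In Epi 6 were, against 22.2%. The same 4 genes, *Cd3d*, *Cd8a*, *Cd2* and *Nkg7*, were at or below the floor in both libraries, which held for 12.2% of all rows with a symbol. No fold was calculated for these 4 genes.

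**Figure D1:**
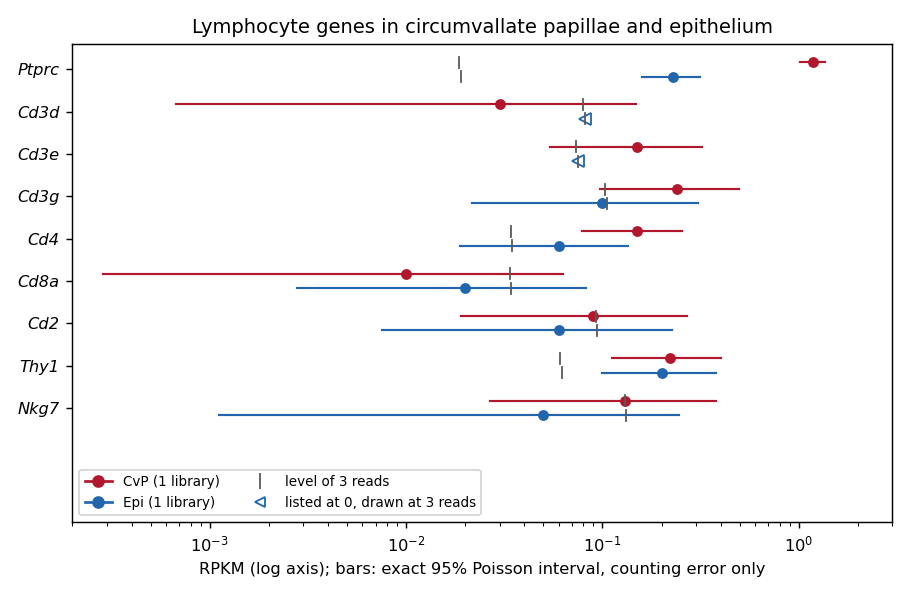
RPKM of the 9 lymphocyte genes in CvP and Epi libraries on a log axis, with bars for the exact 95% Poisson interval of the estimated reads and ticks at the level of 3 reads. *Ptprc* lies far above its ticks in both libraries, at 1.18 and 0.23, while *Cd3d*, *Cd8a*, *Cd2* and *Nkg7* lie at or below theirs, and *Cd3d* and *Cd3e*, listed at 0 in Epi, are drawn as open triangles at 3 reads.

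The table gave the 9 genes lengths close to their annotated transcripts. In GENCODE M1, which is on the same genome build as the table (NCBI37/mm9), the listed length was 0.926 to 1.005 times the longest coding transcript, and it equalled a transcript exactly for 5 of the 9. None of the 9 shared exon bases with another annotated gene, and no stretch of 75 bases, the read length, in their transcripts occurred in a coding transcript of another gene. Whether reads across splice junctions were mapped is not given in the sources used here. Of all 75-base stretches of the transcripts, 61.1% (*Ptprc*) to 91.7% (*Cd8a*) lay within a single exon. The CD3 genes carry internal coding exons that are shorter than a read, so that a read from them can only be placed across a junction. They are shown here with the exon in capitals and 10 bases of intron on either side in lower case, 5′ to 3′ along the gene.

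Cd3d exon 4 (44 bases, chr9:44794140-44794183, plus strand): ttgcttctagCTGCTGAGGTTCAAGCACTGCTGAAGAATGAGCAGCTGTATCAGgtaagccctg
Cd3g exon 5 (44 bases, chr9:44779346-44779389, minus strand): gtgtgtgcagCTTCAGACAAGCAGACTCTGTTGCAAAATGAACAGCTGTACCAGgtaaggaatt
Cd3g exon 2 (24 bases, chr9:44783330-44783353, minus strand): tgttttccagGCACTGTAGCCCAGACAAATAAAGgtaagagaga
Cd3e exon 3 (18 bases, chr9:44815259-44815276, minus strand): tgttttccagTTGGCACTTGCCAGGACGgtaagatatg
Cd3e exon 4 (15 bases, chr9:44813595-44813609, minus strand): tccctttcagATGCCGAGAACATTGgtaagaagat
Cd3e exon 7 (47 bases, chr9:44808518-44808564, minus strand): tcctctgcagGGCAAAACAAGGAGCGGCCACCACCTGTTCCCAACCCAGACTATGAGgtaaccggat

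*Cd3d* and *Cd3g* are neighbouring genes of related sequence, and their exons of 44 bases were identical at 30 positions (68.2%). The part of unmapped junctions in the levels was not tested.

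*Ptprc* (chromosome 1, 139959438 to 140071882, minus strand) encodes the leukocyte phosphatase CD45. Its RPKM was 1.18 in CvP (exact 95% Poisson interval 1.02 to 1.36, about 190 reads) and 0.23 in Epi (0.160 to 0.315, about 36 reads), and the intervals did not overlap. The CvP/Epi ratio was 5.13, with an exact (Clopper-Pearson) interval from 3.62 to 7.63. All intervals and floors cover counting error only, since there was no replicate. Still, 65.3% of the rows with a symbol had a higher RPKM in CvP than *Ptprc*, and 69.0% had one in Epi.

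The CD3 chains are found on T cells and make up the signalling part of the T cell receptor. *Cd3g* (chromosome 9, 44777655 to 44788514, minus strand) had an RPKM of 0.24 in CvP and 0.10 in Epi, about 7 and 3 reads. The interval of its ratio of 2.40 ran from 0.524 to 13.8, so a difference was not detectable at this depth. *Cd3e* (chromosome 9, 44806826 to 44817673, minus strand) had an RPKM of 0.15 in CvP, about 6 reads, and was listed at 0 in Epi. Its CvP value was 2.0-fold the floor of 3 Epi reads, an RPKM of 0.0749, and the lower limit of the counting interval of its ratio was 1.16. *Cd3d* (chromosome 9, 44789869 to 44795135, plus strand) had 1 read in CvP (RPKM 0.03) and was listed at 0 in Epi, where 3 reads would be an RPKM of 0.0813. Within CvP the level per length of *Cd3g* and *Cd3e* did not differ beyond counting error (*Cd3g*/*Cd3e* interval 0.471 to 5.90), while *Cd3g* lay above *Cd3d* (interval 1.16 to 408). Summed over the 3 genes there were 14 reads in CvP and 3 in Epi, a ratio of reads per library of 4.59 (1.28 to 24.9).

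The coreceptors mark the helper and the cytotoxic T cells, though mouse *Cd4* is also transcribed in some dendritic cells and *Cd8a* in a subset of them. *Cd4* (chromosome 6, 124814711 to 124838227, minus strand) reached 0.15 RPKM with about 13 reads in CvP and 0.06 RPKM with about 5 reads in Epi. The ratio was 2.50 with an interval from 0.856 to 9.16, which includes 1. *Cd8a* (chromosome 6, 71323421 to 71329165, plus strand) had 1 read in CvP (RPKM 0.01) and 2 in Epi (RPKM 0.02), and it was the only gene of the 9 with a lower value in CvP. Within CvP, *Cd4* exceeded *Cd8a* per length (interval of the quotient 1.97 to 559), and within Epi the interval, 0.414 to 26.6, included 1. The quotient itself was not shown to differ between the tissues, as its CvP over Epi value of 5.20 had an interval from 0.205 to 330.

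*Cd2* encodes an adhesion receptor of T and NK cells that binds CD48 in the mouse. It lies on chromosome 3 from 101079831 to 101091862 on the minus strand and had an RPKM of 0.09 in CvP and 0.06 in Epi, 3 and 2 reads. *Nkg7*, which encodes a protein of the granule membrane of NK and cytotoxic T cells, lies on chromosome 7 from 50692508 to 50693616 on the plus strand. Its values were 0.13 and 0.05, 3 reads and 1 read. Both genes were higher in CvP by count alone and at or below the floor in both libraries.

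*Thy1* (chromosome 9, 43851467 to 43856662, plus strand) encodes a small surface glycoprotein of mouse T cells that neurons and some fibroblasts also carry. Its RPKM was 0.22 in CvP and 0.20 in Epi, about 11 and 10 reads, and the ratio of 1.1 (0.417 to 2.84) showed no detectable difference. The median ratio was 1.32 over the 10218 rows with an RPKM of at least 1 in both libraries, which include no member. Rows with a mean RPKM of 0.1 to 5 had a median log2 ratio of 0.94, on the log2(RPKM + 0.1) scale. Divided by 1.32, the ratio of *Thy1* was 0.835, and with so few reads a direction was not detectable. Relative to *Ptprc*, *Thy1* differed between the tissues beyond counting error. *Thy1* reads amounted to 5.79% of *Ptprc* reads in CvP and to 27.8% in Epi, a CvP over Epi quotient of 0.208 (conditional exact interval 0.0747 to 0.596). *Thy1* was thus the member whose level in Epi came closest to that of *Ptprc*, at 0.20 against 0.23.

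**Figure D2:**
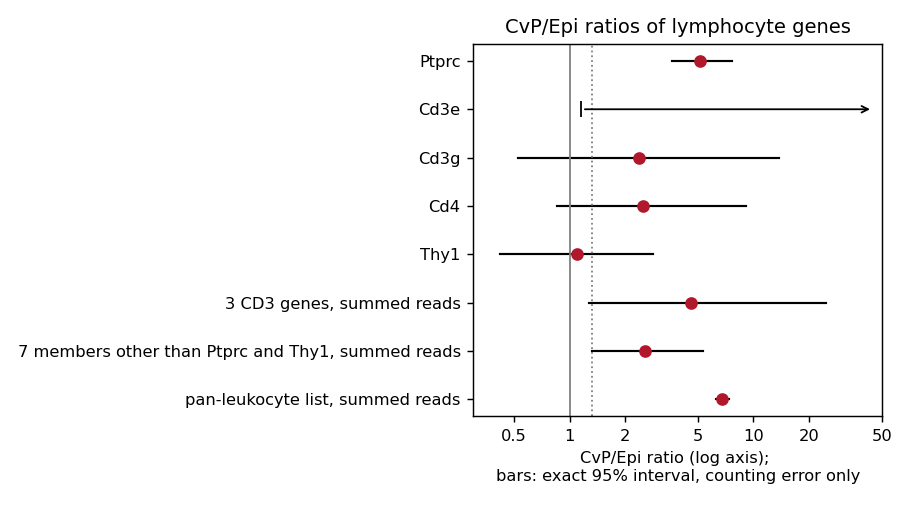
CvP/Epi ratios on a log axis of the 5 members above the floor in a library, of the 3 CD3 genes, the 7 members other than *Ptprc* and *Thy1* and the pan-leukocyte list by summed reads, with exact 95% intervals. The solid line marks 1 and the dotted line the median ratio of 1.32 over rows with an RPKM of at least 1 in both libraries, which include no member. *Ptprc* (5.13) lies clear of both lines, *Cd3g*, *Cd4* and *Thy1* cross 1, and *Cd3e* has only a lower limit of 1.16.

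The counts over the members were read against those over all rows. With a mean RPKM of at least 0.1 over the libraries, 4 of the 9 members passed, *Ptprc*, *Cd3g*, *Cd4* and *Thy1*, and the other 5 did not. Of the 4, only *Ptprc* was more than 3-fold higher in CvP, against 21.0% of the 14918 rows with a symbol that passed. Among rows with a mean RPKM of 0.1 to 5, the range that holds all 4, the share was 35.6%. No member was more than 3-fold higher in Epi, against 2.38% of the rows that passed and 3.26% of rows in that range. With no minimum, 3 of the 9 passed in CvP direction, *Ptprc*, *Cd3e* and *Cd3d*, against 25.9%. *Cd3e* and *Cd3d* were counted only because they were listed at 0 in Epi, and the share over all rows counts such rows likewise. *Cd3e* reached 2.0-fold the floor and *Cd3d* rests on a single read, so neither was shown to exceed 3-fold. None passed in Epi direction, against 4.64%. No member had a mean RPKM of at least 1, where 1513 of 11620 rows passed in the CvP direction and 1.64% in the Epi direction. Of the 9, 8 had a higher value in CvP, against 77.2% of rows above 0 in a library, and all 4 of those past the minimum did, against 78.8%. The interval of the ratio lay above 1 for 2, *Ptprc* and *Cd3e*, against 58.8%. The median log2 ratio of the 4 members that passed was 0.70, on the log2(RPKM + 0.1) scale, against 0.56 over all rows that passed and 0.94 over rows with a mean RPKM of 0.1 to 5.

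Whether T cell transcripts moved with the leukocyte marker was examined by quotients within a library, which do not depend on scaling between the libraries. CD3 reads amounted to 7.37% of *Ptprc* reads in CvP and to 8.33% in Epi. The CvP over Epi quotient of CD3 to *Ptprc* was 0.884 with an interval from 0.230 to 5.04, which is too wide to show either a change or its absence. For *Cd4* the same quotient was 0.493 (0.153 to 1.88), and for the 7 members other than *Ptprc* and *Thy1* it was 0.496 (0.228 to 1.13), from 34 reads in CvP and 13 in Epi. The summed reads of these 7 genes were 2.57-fold higher in CvP (1.32 to 5.31).

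Other genes of lymphocytes were taken from 4 lists of 72 genes, of which 58 had a row. At or below 3 reads in both libraries were 19 of the 58, against 12.2% of all rows with a symbol. A mean RPKM of at least 0.1 was found for 29. Of these 29, 15 were more than 3-fold higher in CvP and 0 in Epi, against 21.0% and 2.38% of all rows and 35.6% and 3.26% of rows with a mean RPKM of 0.1 to 5. Among 22 genes of the T cell receptor and its early signalling, 16 had a row, and the other 6 have no value here. Of the 16, 9 passed the minimum and 5 were more than 3-fold higher in CvP, with a median log2 ratio of 0.93. Among these 5, named after their values were seen, were *Lcp2*, an adaptor of receptor signalling, at 0.96 in CvP and 0.03 in Epi, and *Zap70*, the kinase that binds the phosphorylated CD3 chains, at 0.40 and 0.05. *Themis*, a regulator of thymocyte selection, had an RPKM of 0.62 in CvP and was listed at 0 in Epi. Its CvP value was 23-fold the floor of 3 Epi reads, and the lower limit of its counting interval was 18.2. The kinase gene *Lck* had 0.17 and 0.05, about 11 and 3 reads, and the interval of its ratio of 3.40, from 0.953 to 20.1, included 1. The adaptor gene *Lat* had about 8 reads in CvP and 1 in Epi, a ratio of 7.67 (1.05 to 349). *Zap70* reached a ratio of 8.00 (2.50 to 42.4) and *Lcp2* one of 32.0 (9.89 to 147). Each of these 2 ratios rests on about 3 Epi reads, which is at the floor. *Lcp2* and *Themis* thus stood above each of the 3 CD3 genes in CvP, but *Lcp2* shares 88 exon bases with *4930469K13Rik* and *Themis* 153 with *4930519F09Rik*, both on the opposite strand. The part of these overlaps in their levels was not tested.

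Several genes of the same lists stood at a higher level in both tissues, in contrast to the CD3 genes. *Cd247*, the gene of the zeta chain of the same receptor complex, had an RPKM of 2.69 in CvP and 1.36 in Epi, more than 10 times the level of *Cd3g* in either library. Its listed length of 11801 bases was 4.35 times its longest coding transcript, and 3005 of its exon bases are shared with *Pou2f1* on the opposite strand. *Cd5*, a receptor of T cells, had 6.90 and 9.65, with a listed length 2.24 times the transcript, although *Cd6*, its relative on T cells, had 0.01 and 0.08. *Foxp3*, the factor of regulatory T cells, had 1.24 and 1.28 and shares 590 exon bases with *Ccdc22* on the opposite strand. The adaptor gene *Sla2* (2.92 and 2.32) shares 731 exon bases with *1110008F13Rik*, and *Cd72*, a B cell gene (1.48 and 0.62), shares 1423 with *Tesk1*. The kinase gene *Fyn* (6.17 and 8.32) and the transcription factor gene *Lef1* (3.19 and 4.89), which many other cells also use, had listed lengths of 2.19 and 1.42 times the transcript. *Tcf7*, a factor of T cells and of Wnt signalling, had 3.61 and 2.16. Among 10 listed genes with a mean of at least 0.5, 8 had a listed length above 1.1 times the transcript or shared exon bases. *Tcf7* and *Gzma*, the latter listed at 0 in Epi, had neither. Of the 48 listed genes with a mean below 0.5, 8 had either. A longer listed length is not particular to the higher lymphocyte genes. It was found in 66.5% of all rows with a mean RPKM of at least 0.5 and in 14.4% below. The share of all rows with shared exon bases was not calculated. No source used here says that counting used strand, so reads of overlapping genes cannot be told apart, and the part of these reads in the levels was not tested.

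**Figure D3:**
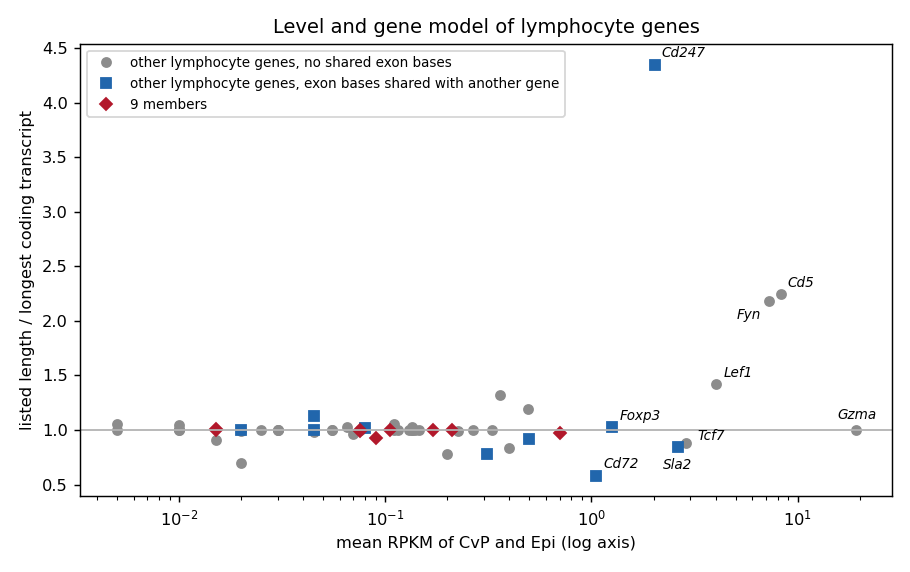
Listed length divided by the longest coding transcript against mean RPKM (log axis) for the 9 members and the listed lymphocyte genes with a value above 0, less 2 that are not reported singly, with squares where exon bases are shared with another gene. The members lie at a length quotient of 0.926 to 1.005 and a mean RPKM below 1, and of the 9 labelled genes at 0.5 or above, 4 lie above 1.1, *Cd247* at 4.35.

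Of 18 coreceptor and T cell subset genes 17 had a row and 11 passed the minimum, with a median log2 ratio of 0.72. Of these 11, 4 were more than 3-fold higher in CvP. *Itgae*, the integrin of T cells that reside in epithelia, was among them, named after its values were seen. Its RPKM was 0.89 in CvP and 0.09 in Epi, about 97 and 10 reads, a ratio of 9.89 (4.97 to 20.5), and its listed length was 1.19 times the transcript. *Cd8b1*, the gene of the beta chain that pairs with the product of *Cd8a*, had 2 reads in CvP and was listed at 0 in Epi. The receptor gene of interleukin 7, *Il7r*, on which T cells depend, had 0.49 and 0.17, a ratio of 2.88 (1.61 to 5.70).

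Of 18 cytotoxic and NK cell genes 17 had a row and 7 passed the minimum, with a median log2 ratio of 1.39. Of these 7, 5 were more than 3-fold higher in CvP. The list held 1 value far from all others, that of *Gzma*, the gene of the serine protease granzyme A. Its RPKM was 38.2 in CvP, about 952 reads, and it was listed at 0 in Epi. The CvP value was 312-fold the floor of 3 Epi reads, and the lower limit of the counting interval was 253. No other gene of the list exceeded an RPKM of 0.47 in CvP. *Prf1*, the gene of perforin, and *Klrb1c* were listed at 0 in both libraries, and *Gzmb* had 1 read in each. *Ccl5* had 0.47 and 0.06, and *Klrd1* 0.25 and 0.15. *Nkg7*, with 3 CvP reads, stood with these genes and not with *Gzma*. The listed length of *Gzma*, 878 bases, equals its transcript, and its exons are shared with no other gene in GENCODE M1.

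Most genes of B and plasma cells with a row did not pass the minimum. Of 14 genes 8 had a row, and the other 6 have no value here. At or below 3 reads in both libraries were 2 of the 8, against 12.2% of all rows with a symbol. The minimum was passed by 2, *Cd72* and *Cd79b*, with a median log2 ratio of 2.15. *Cd79b*, a chain of the B cell receptor, had 0.80 in CvP and was listed at 0 in Epi. Its CvP value was 8.92-fold the floor of 3 Epi reads, and the lower limit of its counting interval was 6.72. *Cd79a*, its partner chain, had 1 read in CvP and none in Epi.

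The leukocyte markers beside the members were higher in CvP. Of 22 pan-leukocyte genes 21 passed the minimum, with a median log2 ratio of 1.54. All 21 had a higher value in CvP, against 78.8% of all rows that passed. More than 3-fold higher in CvP were 14, against 21.0% of these rows and 35.6% of rows with a mean RPKM of 0.1 to 5. In Epi there were 0, against 2.38% of all rows that passed. The summed level of the list was 62.7 in CvP and 12.1 in Epi. The highest were *Lcp1*, an actin bundling protein, at 21.3 and 1.06, the phosphatase gene *Ptpn6* at 11.2 and 3.8, and *Laptm5* at 6.34 and 1.15. With the summed reads of this list in place of *Ptprc*, the CvP over Epi quotient of the CD3 genes was 0.679 (0.189 to 3.69). The sum rests much on few genes. Of its 4984 estimated reads in CvP, *Lcp1* gave 2245, *Ptpn6* 735 and *Vav1* 506, and of its 725 in Epi they gave 110, 245 and 19. The listed lengths of *Ptpn6* and *Vav1* were 1.51 and 1.21 times the transcript, so their estimated reads depend on the length used. The cells that transcribe the genes of this list were not tested. Of 16 macrophage and monocyte genes 15 passed and 14 were more than 3-fold higher in CvP, with a median log2 ratio of 2.58 and a summed level of 200.1 against 10.7. Its highest genes were *Lyz2* (132 and 0.43), *Cd14* (20.4 and 0.94) and *Cd68* (10.8 and 4.45). Macrophages also carry *Ptprc*, and their part in its level was not tested.

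The ligands of the member receptors ranged widely in level. Of the 9 with a row, all passed the minimum and had a higher value in CvP, 3 by more than 3-fold, with a median log2 ratio of 1.42. Over all rows that passed, 78.8% were higher in CvP and 21.0% were so by more than 3-fold. The MHC class I genes *H2-D1* (144 and 77.0) and *H2-K1* (122 and 45.5), ligands of CD8, and *B2m* (131 and 34.9), their light chain, were the highest. *Cd48*, the ligand of CD2, was the lowest, at 0.40 and 0.13, and thus below *Ptprc*.

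Markers of cells that carry *Thy1* outside the immune system moved in different directions. Of 11 nerve genes 7 passed the minimum, with a median log2 ratio of 4.21, or 4.67 with genes listed at 0 set to the floor. More than 3-fold higher in CvP were 6 and in Epi 1, against 21.0% and 2.38% of all rows that passed. *Uchl1* (15.0) and *Snap25* (11.1) were listed at 0 in Epi, and *Tubb3* was at 4.58 and 40.4, but taste cells and other epithelial cells also transcribe such genes. Summed levels were 36.4 in CvP and 40.5 in Epi, and *Gap43* was listed at 0 in both. Of 10 fibroblast genes 9 had a row and 6 passed, 2 more than 3-fold higher in CvP and 3 in Epi, with a median log2 ratio of -0.88. Their summed level was 46.1 against 131, most of it from *Dcn* (26.1 and 128), followed by *Fbln1* (18.5 and 2.79) and *Pdgfra* (1.30 and 0.07). The collagen genes *Col1a1*, *Col1a2* and *Col3a1* were at or below 0.06 in CvP and 0.25 in Epi. The part of either cell type in the level of *Thy1* was not tested.

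**Figure D4:**
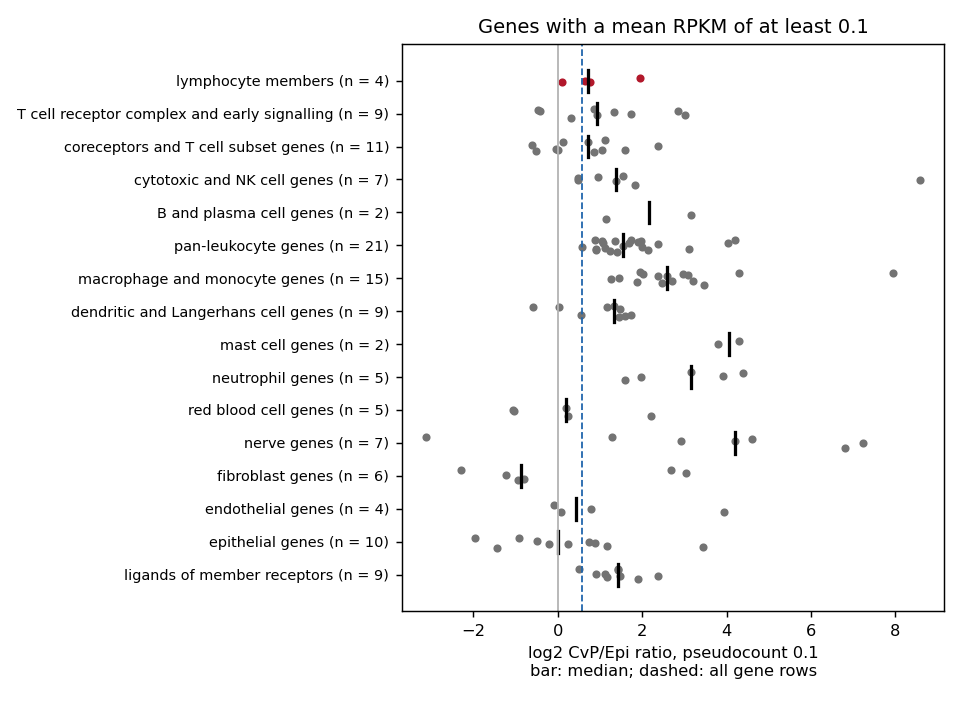
Log2 CvP/Epi ratio, with a pseudocount of 0.1, of each gene with a mean RPKM of at least 0.1 in the member list and in 15 other lists, with a black bar at each median and a dashed line at the median of all rows that passed (0.56). The member median of 0.70 lies near that line, the pan-leukocyte (1.54) and macrophage (2.58) medians lie to its right, and *Gzma* stands apart in the cytotoxic list.

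For comparison, 10 epithelial genes were examined, all of which passed the minimum. These genes were detected in both libraries, so they do not check which library came from the papillae. They moved in both directions, 1 by more than 3-fold towards CvP (*Epcam*, 146 and 13.4) and 1 towards Epi (*Krt14*, 295 and 1140). Over all rows that passed these shares were 21.0% and 2.38%. Of the 10, 5 were higher in CvP, against 78.8% of all rows that passed, and the median log2 ratio was 0.01. *Krt13* (17549 and 47815), *Krt4* (11801 and 22406) and *Perp* (1273 and 1793) were the highest, beside a *Ptprc* level of 1.18 or below. The label of lymphocyte genes in epithelium rests on *Ptprc*, a marker of all leukocytes, and on few reads of genes that define T cells. The 7 members other than *Ptprc* and *Thy1* together gave 13 reads in Epi.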

How the data were processed

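Poly(A) RNA of pooled tissue was prepared with a TruSeq kit and sequenced as single-end reads of 75 bases. The authors mapped the reads with Bowtie 0.12.7 (per the submitters' processing notes) to NCBI37/mm9 and deposited RPKM values given by ERANGE for an exon model per gene, rounded to 2 decimals. ERANGE options, strand use and the treatment of reads matching several places are not given in the sources used here. The authors' ratio column was not used.

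Depth was read from the 163 rows of 0.1 kb, where RPKM rises in steps of 1 read. To estimate reads per gene, RPKM was multiplied by the depth and by the listed length, or by that of the longest GENCODE M1 coding transcript where this was shorter, and rounded. Ratios of RPKM received exact 95% intervals from these reads, which cover counting error only, and the floor was 3 reads. Log2 ratios used a pseudocount of 0.1, so that changes at low levels come out too small, and a mean RPKM of at least 0.1. The 3-fold limit is that of the study. The members, the 15 gene lists, the tests and the alternatives were chosen with earlier results of these data known. Named genes were the members, the 3 highest genes of each list and the lymphocyte genes with a mean RPKM of at least 0.5, and every other gene named was chosen after its values were seen. The values of 2 listed genes are not reported here, though the counts and medians of their lists include them. For a symbol with several rows the highest was used. Calculations were tested on simulated data and run in Python 3.11.15 (scipy 1.17.1, numpy 2.4.6, pandas 2.3.3, matplotlib 3.10.9).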

Additional observations from a re-analysis of the deposited data

How the results depend on the processing

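No paired analysis was possible because there was a single library of CvP and a single one of Epi, and for the same reason no library could be left out. The number of members more than 3-fold higher in CvP, 1 of 4, was 0 with a pseudocount of 1, 2 with RPKM rescaled to a common sum, 3 with a ratio above 2, and 3 of 9 with no minimum, which was added after seeing the data. The count with no minimum includes *Cd3e* and *Cd3d*, listed at 0 in Epi and not shown to exceed 3-fold. The number was 1 under the other alternatives, and in Epi it was 0 under all of them. A minimum mean RPKM of 1 left no member. With a pseudocount of 1 the ratio of *Ptprc* was 1.77, and it otherwise lay within its counting interval, as did 23 of the 24 alternative values of member ratios. The share of all rows past 3-fold in CvP direction, 21.0%, was higher with no minimum (25.9%) and with a mean of 0.1 to 5 (35.6%) and lower with a minimum mean RPKM of 1 (1513 of 11620 rows). A pseudocount of 1 moved the medians of 9 of the 15 lists below their lower quartiles and reversed none. Divided by the median ratio of the rows with an RPKM of at least 1 in both libraries, *Thy1* went from 1.1 to 0.835, within its counting interval. Depth limits all members but *Ptprc*.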

Other observations

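Other blood-borne cells were described with lists of the same kind. Their counts are to be read against all rows past the minimum, of which 21.0% were more than 3-fold higher in CvP and 2.38% in Epi. Among rows with a mean RPKM of 0.1 to 5 these shares were 35.6% and 3.26%. Of 12 dendritic and Langerhans cell genes 9 passed the minimum, 4 were more than 3-fold higher in CvP and 0 in Epi, with a median log2 ratio of 1.34. The class II genes *Cd74* (60.6 and 19.9), *H2-Ab1* (30.5 and 13.6) and *H2-Aa* (30.4 and 10.8) were the highest, whereas *Cd207*, the langerin gene of Langerhans cells, was lower in CvP, at 0.85 against 1.33 in Epi, a ratio of 0.639 (0.410 to 0.983). *Cd207* was named after its values were seen. Of 10 neutrophil genes 8 had a row and 5 passed, all 5 more than 3-fold higher in CvP, with a median log2 ratio of 3.15. Among these 5 were *S100a9* (31.4 and 3.45), *S100a8* (22.1 and 1.37) and *Cxcr2* (2.0 and 0.60), genes that epithelial cells can also transcribe. *Elane* was listed at 0 in both libraries.

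Of 10 mast cell genes 4 had a row and 2 passed, *Kit* (26.3 and 1.81) and *Hdc* (2.27 and 0.02), both more than 3-fold higher in CvP, with a median log2 ratio of 4.05, but *Gata2* was listed at 0 in both libraries and *Cpa3* had 1 read in Epi alone. Red blood cell genes stayed low, with a summed level of 2.60 in CvP and 2.21 in Epi. Of 8 genes 6 had a row and 5 passed the minimum, with a median log2 ratio of 0.20. *Alas2* was the highest (1.37 and 0.22), ahead of *Hba-a1* (0.32 and 0.77) and *Hba-a2* (0.32 and 0.76). Of 10 endothelial genes 8 had a row and 4 passed, 1 more than 3-fold higher in CvP, with a median log2 ratio of 0.44. *Tek* (2.49 and 0.07) was the highest, and *Esam* (0.25 and 0.27) and *Egfl7* (0.26 and 0.24) were nearly equal.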
